A study of Homo sapiens with 9 samples.

Results

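The 50 genes described here code for proteins that drive a cell through G2 and mitosis. They were given as a list of symbols covering mitotic cyclins and kinases, spindle, kinetochore and checkpoint proteins, and all 50 were found among the 38478 gene rows of the deposited table. They were sorted into 10 genes of mitotic entry, 4 of mitotic exit, 6 of the spindle checkpoint (NEK2 counted there) and 2 transcription factors. The others are 4 of the chromosomal passenger complex, 10 of the spindle, 6 of the centromere and kinetochore, 3 of cytokinesis and 5 of chromosome structure. The proteins of AURKA and TOP2A are substrates of FBXW7, the substrate receptor of a ubiquitin ligase that marks them for destruction.

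Poly(A) RNA of OPM-1 cells, an established human plasma cell myeloma line, was sequenced in 9 strand-specific libraries, 3 in each group, labelled as independent biological replicates. In the gFBXW7_gKMT2D group the cells stably carried RNAs directed at FBXW7 and at KMT2D, a histone H3 lysine 4 methyltransferase. In the gFBXW7 group they carried the RNA against FBXW7 alone, and in the gLuc group, the control, one against luciferase. All libraries have the genotype label WT and the same growth medium, RPMI with FBS. The labels do not give the way in which these RNAs act, a time, or whether a line is 1 clone or a pool.

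Cyclin A and cyclin B with the kinase CDK1 start mitosis, and the anaphase-promoting complex with CDC20 ends it by marking securin and cyclin B for destruction. Genes of this programme are transcribed late in the cell cycle, under the MuvB complex with B-MYB (MYBL2) and FOXM1 in G2, and are held down by the DREAM complex in quiescent cells. The DNA element of this control is the cell cycle genes homology region, CHR, a short stretch next to the transcription start that often stands a few helix turns downstream of CCAAT boxes, to which NF-Y binds.

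The promoters of 5 of the genes are printed because they show how this element and the CCAAT box are laid out. They run from 150 bases before to 50 bases after the RefSeq start on GRCh38.p14, all on the plus strand, 5′ to 3′. Capitals mark TTTGAA or its reverse complement TTCAAA (the CHR letters) and CCAAT or its reverse complement ATTGG.
CDC20, chr1:43358831-43359030: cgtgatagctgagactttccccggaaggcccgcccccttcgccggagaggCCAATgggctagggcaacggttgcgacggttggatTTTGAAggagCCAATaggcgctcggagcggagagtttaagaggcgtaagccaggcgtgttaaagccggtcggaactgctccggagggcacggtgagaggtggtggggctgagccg
CCNB1, chr5:69167000-69167199: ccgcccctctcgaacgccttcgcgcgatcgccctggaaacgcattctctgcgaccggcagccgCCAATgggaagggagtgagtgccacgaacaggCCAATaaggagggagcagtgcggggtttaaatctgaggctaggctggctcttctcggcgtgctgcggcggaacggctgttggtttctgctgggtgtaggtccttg
PLK1, chr16:23678739-23678938: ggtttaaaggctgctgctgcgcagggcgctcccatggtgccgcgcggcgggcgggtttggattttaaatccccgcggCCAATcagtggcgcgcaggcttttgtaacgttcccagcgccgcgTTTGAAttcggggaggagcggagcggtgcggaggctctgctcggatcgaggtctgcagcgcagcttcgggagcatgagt
CKS2, chr9:89311045-89311244: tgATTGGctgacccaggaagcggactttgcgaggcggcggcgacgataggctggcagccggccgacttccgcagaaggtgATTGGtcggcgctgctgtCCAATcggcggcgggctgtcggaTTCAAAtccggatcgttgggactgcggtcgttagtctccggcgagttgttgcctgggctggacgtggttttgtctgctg
KIF11, chr10:92592980-92593179: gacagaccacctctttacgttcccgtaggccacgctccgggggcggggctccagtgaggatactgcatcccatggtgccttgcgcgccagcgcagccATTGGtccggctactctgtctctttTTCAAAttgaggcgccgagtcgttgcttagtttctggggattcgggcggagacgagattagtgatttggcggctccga

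In PLK1, CKS2 and KIF11 the CHR letters began 29, 29 and 28 bases before the start, and a CCAAT box stood upstream of them in each. CDC20 has both elements, with the CHR letters 65 bases before the start and CCAAT boxes on either side. CCNB1 shows CCAAT boxes at 87 and 55 bases before the start and no TTTGAA in its window.

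RefSeq windows, which reach from 250 bases before to 50 after the start, were found for 42 of the 50 genes, 6 of them with several starts, giving 52 windows. UBE2C, BIRC5, FOXM1, AURKA, TPX2, RACGAP1, TTK and BUB3 had none in the table. Searched on both strands, TTTGAA began within the 100 bases before the start in 22 of 52 windows (42.3%), against 4.87% of all 35116 RefSeq windows, and CCAAT in 31 of 52 (59.6%), against 18.4%. Both were present there in 17 windows (32.7%), against 351 of the 35116 windows. The 100-base stretch was chosen after the positions had been seen, and in the whole window the shares were 63.5% against 15.2% for TTTGAA and, for CCAAT, 39 of 52 windows against 34.6%. The matches were not spread evenly. TTTGAA began 40 to 21 bases before the start in 26.9% of the windows, against 1.14% of all windows, and CCAAT 60 to 41 bases before it in 32.7%, against 5.01%. The E-box CACGTG was found in 6 whole windows (11.5%, against 7.26% of all windows) and began in the 100 bases before the start in 0 of 52, against 3.57%. The E2F letters TTTCCCGC, TTTCGCGC, TTTGCCGC and TTTGGCGC, searched in the same way, were found in 4 whole windows (7.69%, against 3.31%) and in that stretch in 0 of 52, against 1.24%. These are matches of letters and show no binding, and CHR variants with other letters were not searched.

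**Figure D1:**
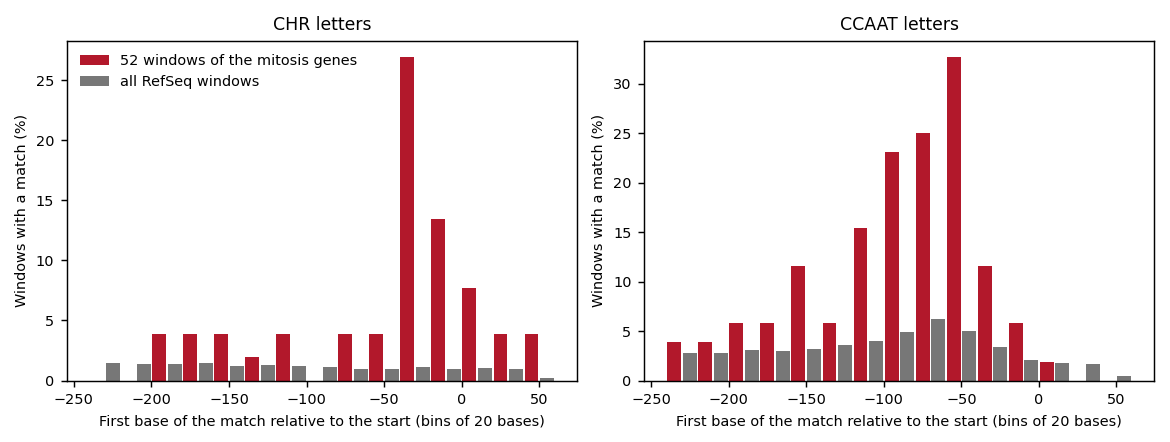
Share of promoter windows (%, vertical axis) in which TTTGAA (left) or CCAAT (right), on either strand, begins in each 20-base bin relative to the RefSeq start (bases, horizontal axis), for the 52 windows of the mitosis genes (red) and for all RefSeq windows (grey). The red bars peak at 40 to 21 bases before the start for TTTGAA (26.9%) and at 60 to 41 bases for CCAAT (32.7%).

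Total counts were between 16337492 and 27076242 per library, and each of the 50 genes had between 127 and 15082 reads in every library. All 8 plasma cell markers were detected in all libraries (summed level 11510 to 14489 CPM, reads scaled to library size). Of 10 markers of other cell types, HBB averaged 33.7 CPM, PECAM1 1.35 CPM, EPCAM was at 0 in all libraries and the other 7 averaged at most 0.129 CPM. FBXW7 transcript was at 46.0, 45.2 and 71.6 CPM in gFBXW7_gKMT2D and 53.3, 55.5 and 54.7 CPM in gFBXW7, against 53.8, 47.9 and 48.7 CPM in gLuc libraries. KMT2D transcript was at 48.0, 107 and 28.6 CPM in gFBXW7_gKMT2D and 48.7, 65.1 and 59.1 CPM in gFBXW7, against 40.9, 58.3 and 104 CPM in gLuc. The groups overlapped for both transcripts in each comparison, so neither checks the labels. For FBXW7 the overlap of gFBXW7_gKMT2D with the other groups rests on its library at 71.6 CPM, gFBXW7_gKMT2D 3, since the other 2 lay below every gFBXW7 and every gLuc library. Its log2 fold changes were -0.0081 in gFBXW7_gKMT2D against gFBXW7 and 0.11 against gLuc, and without that library -0.25 (SE 0.10, edgeR adjusted p = 0.638) and -0.14 (SE 0.10, adjusted p = 1). The library gFBXW7_gKMT2D 3 stands apart: it had the highest or lowest level of the 9 libraries for 30.8% and 33.0% of all 13262 genes tested. The library gLuc 3 came next, with 21.7% and 16.7%. Among the 50 mitosis genes gLuc 3 was highest for 19 and lowest for 3, and gFBXW7_gKMT2D 3 for 17 and 19. Without gFBXW7_gKMT2D 3, 21 of the 50 changed the sign of their fold change in gFBXW7_gKMT2D against gFBXW7 and 21 in gFBXW7_gKMT2D against gLuc.

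The mitotic programme was abundant in all 3 groups. All 50 genes passed the filter on low counts, their median level was 37.3 RPKM (reads scaled to gene length and library size), against 5.43 RPKM for all tested genes, and for 42 of them the level was in the top 25% of tested genes. On the RPKM scale, which corrects for length, the highest were CKS1B, a small subunit that docks on CDK1 and that also helps the SKP2 ubiquitin ligase to degrade p27 (306 RPKM averaged over 9 libraries), MYBL2 (163 RPKM), CKS2, the paralog of CKS1B (160 RPKM), and CCNB1, cyclin B1 (126 RPKM). The lowest were NCAPH, a condensin subunit (10.9 RPKM), ECT2, the exchange factor that activates RhoA at the cleavage furrow (9.86 RPKM), KIF20A, a kinesin of the central spindle (6.70 RPKM), and CDC25C, a phosphatase that activates CDK1 (3.82 RPKM). CDC25C was the single gene of the 50 below the median of all tested genes. Its relative CDC25B averaged 33.5 RPKM. Since the RNA is of whole cultures, a smaller share of cells in G2 or mitosis and less RNA per such cell cannot be told apart.

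**Figure D2:**
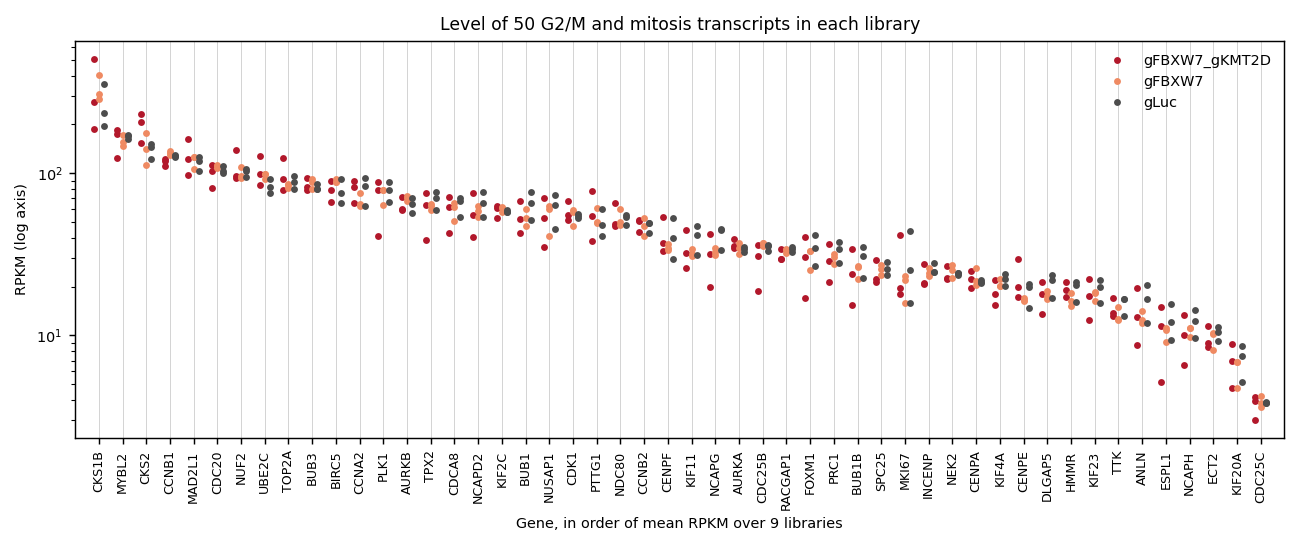
Level of each of the 50 genes in each library (RPKM, log axis), ordered by the mean over the 9 libraries, for gFBXW7_gKMT2D (red), gFBXW7 (orange) and gLuc (grey). Levels run from 306 RPKM for CKS1B to 3.82 RPKM for CDC25C, and the spread of a gene over libraries is small beside the spread between genes.

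No comparison called any of the 50 genes (adjusted p at least 0.902, edgeR quasi-likelihood test with Benjamini-Hochberg adjustment over 13262 genes). In the first comparison, gFBXW7_gKMT2D against gFBXW7, 0 of 50 genes were called, against 0.0603% of all tested genes, and 2 of 50 had an unadjusted p under 0.05, against 4.22%. In gFBXW7_gKMT2D against gLuc, 0 were called, against 0.0528%, and 1 had an unadjusted p under 0.05, against 3.61%. In gFBXW7 against gLuc, 0 were called, against 0%, and 0 had an unadjusted p under 0.05, against 1.58%. These 3 comparisons share libraries, so their values are not independent of each other. DESeq2's Wald test and limma also called none of the 50.

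The median log2 fold change of the 50 genes was 0.01 in gFBXW7_gKMT2D against gFBXW7, with 27 genes above 0 (54.6% of all tested genes were) and a median of 0.02 over all tested genes. It was -0.01 in gFBXW7_gKMT2D against gLuc, with 24 above 0 (50% of all) and a median of 0.00023 over all genes, and -0.04 in gFBXW7 against gLuc, with 22 above 0 (49.3%) and a median of -0.0042. Without gFBXW7_gKMT2D 3 the median was 0.07 in gFBXW7_gKMT2D against gFBXW7, with 28 genes above 0, and -0.04 in gFBXW7_gKMT2D against gLuc, with 19 above 0, and none of the 50 was called. The widths of the intervals say what size of change the data leave room for. The 95% interval lay within 2-fold either way for 47, 48 and 48 of the 50 genes in the 3 comparisons in the same order, against 80.9%, 78.1% and 79.4% of all tested genes. Within 1.5-fold it lay for 35, 31 and 34 genes, against 43.5%, 41% and 42.9%. Each interval is for a single gene and is not adjusted for the number of genes. It does not give the size of change that the adjusted test could call with 3 libraries a group. The interval of CKS2 in gFBXW7_gKMT2D against gLuc, 0.08 to 1.11 on the log2 scale, left out 0, and its edgeR adjusted p was 0.902.

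**Figure D3:**
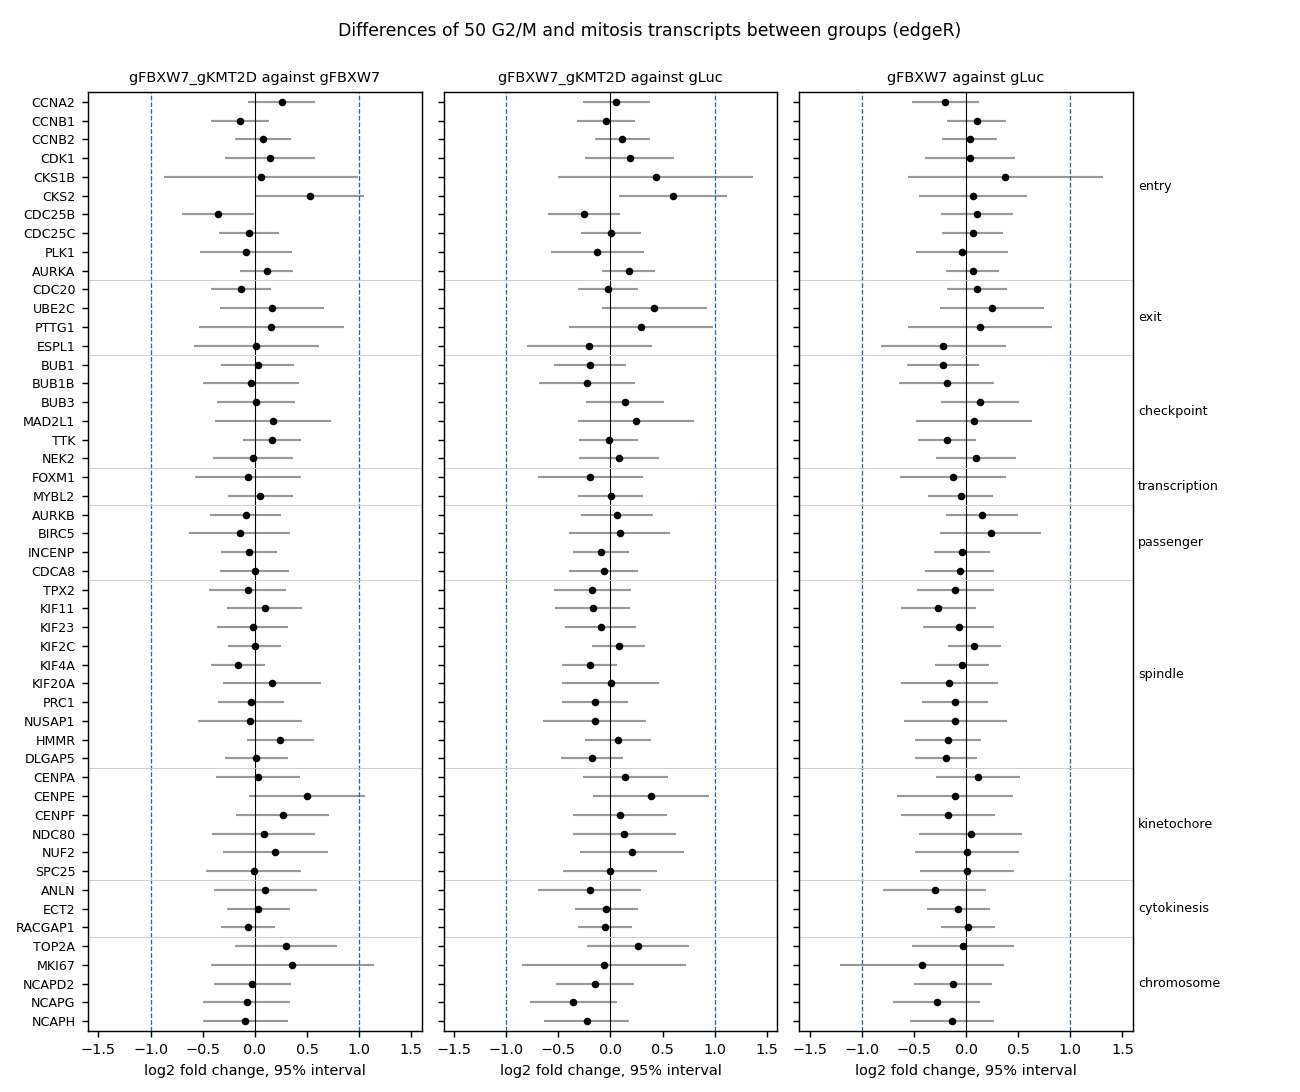
Log2 fold change (horizontal axis) of each of the 50 genes, grouped by role, with its 95% interval, in gFBXW7_gKMT2D against gFBXW7 (left), gFBXW7_gKMT2D against gLuc (middle) and gFBXW7 against gLuc (right). Dashed lines mark a 2-fold difference either way; 47, 48 and 48 intervals lie inside them, and no gene passed the test after adjustment.

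Among the genes of mitotic entry, CKS2 was the furthest from 0 in both comparisons with gFBXW7_gKMT2D. In gFBXW7 against gLuc CKS1B was, at 0.38 on the log2 scale, and CKS2 had 0.07 (SE 0.23). CKS2 had 127, 87.0 and 168 CPM in gFBXW7_gKMT2D and 71.1, 86.5 and 107 CPM in gFBXW7, against 78.0, 86.5 and 87.7 CPM in gLuc. The groups overlapped, through the gFBXW7_gKMT2D library at 87.0 CPM. Set against gFBXW7, the gFBXW7_gKMT2D libraries gave a log2 fold change of 0.53 (SE 0.23, unadjusted p = 0.0454, adjusted p = 1), and 0.60 (SE 0.23, unadjusted p = 0.0279, adjusted p = 0.902) against gLuc, from edgeR. Without gFBXW7_gKMT2D 3 these were 0.29 and 0.35, and without gFBXW7_gKMT2D 2 they were 0.74 and 0.81.

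CDC25B is a phosphatase that removes the inhibitory phosphates of CDK1 at the start of mitosis (chr20:3786772-3806121, GRCh38). Its fold changes were of the opposite sign to those of CKS2 in both comparisons with gFBXW7_gKMT2D. CDC25B had 136, 144 and 96.5 CPM in gFBXW7_gKMT2D and 160.5, 163 and 158 CPM in gFBXW7, against 149, 150.5 and 149 CPM in gLuc. Here the gFBXW7_gKMT2D libraries lay below all others and the gFBXW7 libraries above all others, with no overlap between any pair of groups. Its change in gFBXW7_gKMT2D against gFBXW7 was -0.35 on the log2 scale (SE 0.15, unadjusted p = 0.0446, edgeR adjusted p = 1), with -0.25 (SE 0.15, adjusted p = 0.902) against gLuc, and 0.10 (SE 0.15, adjusted p = 0.956) in gFBXW7 against gLuc. Without gFBXW7_gKMT2D 3 the first was -0.19 and the second -0.09. Over single libraries left out the first ran from -0.47 to -0.19. With 1 surrogate variable in the model it was -0.36 (SE 0.089, adjusted p = 0.0762), the smallest adjusted p of any of the 50 genes over all models run.

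Cyclin A2 (CCNA2), the cyclin that leads from S phase into mitosis, had 231, 231 and 215 CPM in gFBXW7_gKMT2D and 180, 180 and 207 CPM in gFBXW7, against 181, 224 and 246 CPM in gLuc. The gFBXW7_gKMT2D libraries lay above the gFBXW7 libraries and inside the range of gLuc. In gFBXW7_gKMT2D against gFBXW7 it differed by a log2 fold change of 0.26 (SE 0.14, edgeR adjusted p = 1).

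AURKA, the centrosomal kinase whose protein FBXW7 can mark for destruction, had 109, 111 and 123 CPM in gFBXW7_gKMT2D and 109, 97.1 and 111 CPM in gFBXW7, against 103, 100.1 and 100.3 CPM in gLuc. All 3 gFBXW7_gKMT2D libraries lay above all gLuc libraries, by little, and the gFBXW7 libraries overlapped both. AURKA gave log2 fold changes of 0.18 (SE 0.11, edgeR adjusted p = 0.902) in gFBXW7_gKMT2D against gLuc and 0.06 (SE 0.11, adjusted p = 0.956) in gFBXW7 against gLuc, with 95% intervals from -0.08 to 0.43 and from -0.19 to 0.32.

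CCNB1, CDK1 and PLK1, the core of the entry switch, did not pass the test, and their libraries overlapped in each comparison. CCNB1 averaged 263 ± 23.1 CPM in gFBXW7_gKMT2D, 290.0 ± 8.14 CPM in gFBXW7 and 271 ± 17.6 CPM in gLuc (SD, n = 3 each). CDK1, the kinase it activates, had 190, 161 and 269 CPM in gFBXW7_gKMT2D and 208, 161 and 191 CPM in gFBXW7, against 191, 185 and 169 CPM in gLuc, with the highest and the lowest of the 9 libraries both in gFBXW7_gKMT2D. PLK1, the polo-like kinase that activates CDC25C and matures centrosomes, had 179, 186 and 110 CPM in gFBXW7_gKMT2D and 150, 180 and 175 CPM in gFBXW7, against 156, 173 and 188 CPM in gLuc. In gFBXW7_gKMT2D against gFBXW7 the log2 fold changes were -0.14 (SE 0.12) for CCNB1, 0.14 (SE 0.19) for CDK1 and -0.09 (SE 0.20) for PLK1, and against gLuc they were -0.04 (SE 0.12), 0.18 (SE 0.19) and -0.12 (SE 0.20). Without gFBXW7_gKMT2D 3, CDK1 and PLK1 turned sign in both comparisons (-0.09 and -0.05 for CDK1, 0.12 and 0.08 for PLK1). CCNB2 and CDC25C had log2 fold changes between -0.05 and 0.11 in the 3 comparisons.

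CKS1B was the most variable of the 50 genes. It had 255, 159 and 550.2 CPM in gFBXW7_gKMT2D and 385, 266 and 276 CPM in gFBXW7, against 336, 208 and 169 CPM in gLuc, a 3.46-fold range over the libraries. Both the highest and the lowest library belonged to gFBXW7_gKMT2D. Fold changes on the log2 scale were 0.06 (SE 0.42) for gFBXW7_gKMT2D against gFBXW7, 0.43 (SE 0.42) against gLuc and 0.38 (SE 0.42) in gFBXW7 against gLuc, and without gFBXW7_gKMT2D 3 the first and second were -0.57 and -0.20. The annotation holds 6 pseudogenes named after CKS1B, the most for any of the 12 genes of the list that have one, and reads of these 12 could be split by the counting.

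Of the exit genes, CDC20, the activator of the anaphase-promoting complex, had 189, 159 and 158 CPM in gFBXW7_gKMT2D and 185, 186 and 183 CPM in gFBXW7, against 192, 162 and 162 CPM in gLuc, with overlap in each comparison. Its log2 fold changes were -0.13 (SE 0.13) in gFBXW7_gKMT2D against gFBXW7, -0.03 (SE 0.13) against gLuc and 0.11 (SE 0.13) in gFBXW7 against gLuc. UBE2C, the ubiquitin-conjugating enzyme of the same complex, had 125, 97.3 and 189 CPM in gFBXW7_gKMT2D and 129, 116 and 121 CPM in gFBXW7, against 119, 99.3 and 89.2 CPM in gLuc. The gFBXW7_gKMT2D group held the highest library, and the groups overlapped in each comparison that includes it. The log2 fold change in gFBXW7_gKMT2D against gLuc was 0.42 (SE 0.22, edgeR adjusted p = 0.902), and 0.12 without gFBXW7_gKMT2D 3. Over single libraries left out it ran from 0.12 to 0.62. The annotation has 4 pseudogenes named after UBE2C. PTTG1 (securin) and ESPL1 (separase, the protease that securin holds back) spread widely within groups: PTTG1 averaged 69.5 ± 32.6 CPM in gFBXW7_gKMT2D, 62.2 ± 9.55 CPM in gFBXW7 and 56.7 ± 13.6 CPM in gLuc (SD, n = 3 each), and ESPL1 71.8 ± 27.2, 71.2 ± 5.72 and 82.7 ± 17.6 CPM in the same groups. Without gFBXW7_gKMT2D 3, the fold changes of PTTG1 against gFBXW7 and against gLuc were -0.26 and -0.13, in place of 0.16 and 0.29, and those of ESPL1 were 0.29 and 0.07, in place of 0.02 and -0.20. PTTG1 has near-identical relatives among which its reads could be split.

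The spindle checkpoint, which holds anaphase until every kinetochore is attached, was read through 6 genes, among which the kinase NEK2 was counted here. BUB1, a checkpoint kinase, had 193, 227 and 185 CPM in gFBXW7_gKMT2D and 180, 196 and 218 CPM in gFBXW7, against 195, 231 and 266 CPM in gLuc, with overlap throughout. Its log2 fold changes were 0.03 (SE 0.16) in gFBXW7_gKMT2D against gFBXW7, -0.19 (SE 0.16) against gLuc and -0.22 (SE 0.16) in gFBXW7 against gLuc. TTK, the MPS1 kinase at the head of the pathway, had 63.3, 72.2 and 70.7 CPM in gFBXW7_gKMT2D and 59.6, 57.6 and 66.8 CPM in gFBXW7, against 62.0, 74.3 and 72.4 CPM in gLuc. Its log2 fold change of -0.18 (SE 0.13, edgeR adjusted p = 0.956) in gFBXW7 against gLuc came with overlapping libraries. Fold changes of BUB1B, BUB3, MAD2L1 and NEK2 in the 3 comparisons ran from -0.23 to 0.25 on the log2 scale. Without gFBXW7_gKMT2D 3, MAD2L1 had -0.17 against gFBXW7 and -0.10 against gLuc, in place of 0.17 and 0.25.

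FOXM1 and MYBL2, the transcription factors of the programme, had no difference beyond the spread. FOXM1 had 112, 137 and 73.9 CPM in gFBXW7_gKMT2D and 97.3, 122 and 120 CPM in gFBXW7, against 102, 123 and 145 CPM in gLuc. MYBL2 had 516, 448 and 405 CPM in gFBXW7_gKMT2D and 422, 475 and 424 CPM in gFBXW7, against 486, 435 and 446 CPM in gLuc. For both, the lowest library was gFBXW7_gKMT2D 3 and the groups overlapped. FOXM1 had log2 fold changes of -0.07, -0.19 and -0.13 (SE 0.23 each) and MYBL2 of 0.05, 0.00092 and -0.05 (SE 0.14 each) in gFBXW7_gKMT2D against gFBXW7, gFBXW7_gKMT2D against gLuc and gFBXW7 against gLuc. Without gFBXW7_gKMT2D 3 the first and second were 0.15 and 0.02 for FOXM1 and 0.14 and 0.08 for MYBL2.

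The chromosomal passenger complex corrects faulty attachments and steers cytokinesis. Its kinase AURKB had 127, 96.9 and 126 CPM in gFBXW7_gKMT2D and 123, 127 and 121 CPM in gFBXW7, against 128, 111 and 94.99 CPM in gLuc. The groups overlapped, and the log2 fold changes were -0.09, 0.06 and 0.15 (SE 0.15 each) in the comparisons in that order. Its partners BIRC5 (survivin), INCENP and CDCA8 (borealin) lay between -0.15 and 0.23.

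The 10 spindle genes, motors and microtubule-associated proteins, held 3 of the genes of smallest p. KIF11, the motor that pushes spindle poles apart, had 163, 207 and 155 CPM in gFBXW7_gKMT2D and 165, 157 and 170 CPM in gFBXW7, against 164, 202 and 226 CPM in gLuc. The lowest gLuc library lay inside the range of gFBXW7, and the log2 fold change in gFBXW7 against gLuc was -0.27 (SE 0.16, edgeR adjusted p = 0.956). Without gLuc 1 it was -0.38, and without gLuc 3 it was -0.17. DLGAP5, which stabilises kinetochore fibres, had 57.7, 62.5 and 50.6 CPM in gFBXW7_gKMT2D and 54.9, 55.7 and 58.6 CPM in gFBXW7, against 55.7, 67.3 and 70.2 CPM in gLuc, a log2 fold change of -0.19 (SE 0.13) in gFBXW7 against gLuc. KIF4A, a chromokinesin, had 81.4, 90.7 and 81.4 CPM in gFBXW7_gKMT2D and 103, 91.2 and 88.9 CPM in gFBXW7, against 94.0, 96.0 and 101 CPM in gLuc. All gFBXW7_gKMT2D libraries lay below all gLuc libraries, and the log2 fold change was -0.20 (SE 0.12, edgeR adjusted p = 0.902). KIF2C, a motor that depolymerises microtubules, was the steadiest of the 50, with a 1.15-fold range over the 9 libraries.

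Of the centromere and kinetochore genes, CENPE, the motor that carries chromosomes to the spindle equator (chr4:103105806-103198409, GRCh38), had 149, 158 and 300.2 CPM in gFBXW7_gKMT2D and 145, 142 and 143.5 CPM in gFBXW7, against 130.5, 165 and 168 CPM in gLuc. All gFBXW7_gKMT2D libraries were above the gFBXW7 libraries, 1 of them far above and 2 by little. This comparison gave a log2 fold change of 0.50 (SE 0.25, edgeR adjusted p = 1). It was 0.11 without gFBXW7_gKMT2D 3 and 0.67 without gFBXW7_gKMT2D 1. NDC80, NUF2 and SPC25, 3 subunits of the complex that grips microtubules, and MAD2L1 of the checkpoint were also highest in gFBXW7_gKMT2D 3 and lowest in gFBXW7_gKMT2D 2. NUF2 had 190, 171 and 323 CPM in gFBXW7_gKMT2D and 193, 192 and 212 CPM in gFBXW7, against 218, 199 and 178 CPM in gLuc. Its log2 fold changes were 0.20 in gFBXW7_gKMT2D against gFBXW7 and against gLuc, and -0.13 in both without gFBXW7_gKMT2D 3. Cytokinesis genes ANLN, ECT2 and RACGAP1 had log2 fold changes between -0.30 and 0.10.

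TOP2A, the DNA topoisomerase that untangles sister chromatids and whose protein is an FBXW7 substrate, had 465, 498 and 853 CPM in gFBXW7_gKMT2D and 511, 473 and 495 CPM in gFBXW7, against 484, 499 and 531 CPM in gLuc. A single library, gFBXW7_gKMT2D 3, lay apart, and the other 8 were between 465 and 531 CPM. On the log2 scale its fold changes were 0.29 (SE 0.22) for gFBXW7_gKMT2D against gFBXW7, 0.26 (SE 0.22) against gLuc and -0.03 (SE 0.22) in gFBXW7 against gLuc, and without that library the first and second were -0.03 and -0.07. The condensin subunit NCAPG had 151, 186 and 112 CPM in gFBXW7_gKMT2D and 170, 151 and 154 CPM in gFBXW7, against 165, 207 and 203 CPM in gLuc. Its log2 fold change was -0.36 (SE 0.19, edgeR adjusted p = 0.902) in gFBXW7_gKMT2D against gLuc and -0.28 (SE 0.19, adjusted p = 0.956) in gFBXW7 against gLuc, with overlap in both. Without gFBXW7_gKMT2D 3 the first was -0.18, and over single libraries left out it ran from -0.55 to -0.18. MKI67, the Ki-67 protein that coats mitotic chromosomes and serves as a marker of proliferation, had 260, 503 and 278 CPM in gFBXW7_gKMT2D and 217, 292 and 302 CPM in gFBXW7, against 216, 323 and 547 CPM in gLuc. Both the highest and the lowest of these were gLuc libraries.

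Counted over all 50, groups without overlap made up shares near or below those of all tested genes. In gFBXW7_gKMT2D against gFBXW7 they were CCNA2 and CENPE upward (2 of 50, against 4.35% of all tested genes) and CDC25B downward (1 of 50, against 5.2%). In gFBXW7_gKMT2D against gLuc they were AURKA upward (1, against 3.28%) and CDC25B and KIF4A downward (2, against 3.69%), and in gFBXW7 against gLuc CDC25B upward (1, against 4.37%) and none downward (0, against 4.49%).

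The spread between libraries of a group followed a pattern of its own. The median within-group SD of log2 CPM was 0.21 for the 50 genes and 0.27 for all tested genes, with 31 of the 50 genes below 0.27. It was largest for CKS1B (0.62), MKI67 (0.51) and PTTG1 (0.46), and smallest for KIF2C (0.063), CDC25C (0.080) and RACGAP1 (0.082). MKI67 has the greatest gene length of the 50 in the deposited table (13210 bases), while CKS1B (924 bases) and PTTG1 (1160 bases) are among the shortest.

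In most libraries, the long and the short genes of the list departed from their means in opposite directions. Each gene's departure is its log2 CPM minus its mean over 9 libraries. Spearman's rho between departure and gene length over the 50 genes was -0.62, 0.67 and -0.46 in gFBXW7_gKMT2D, -0.31, -0.10 and -0.49 in gFBXW7, and -0.49, 0.59 and 0.73 in gLuc libraries. The same over all 13262 tested genes was -0.31, 0.47 and -0.31, then -0.34, -0.17 and -0.05, then -0.40, 0.34 and 0.51. The genes of a library share its preparation, so this is a description with no test, and it was looked for after the values had been seen. The sign differed between libraries of gFBXW7_gKMT2D and between libraries of gLuc, and was negative in all 3 gFBXW7 libraries.

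The 25 longest genes (3416 bases and more) lay above the 25 shortest (3276 bases and less) by 0.41 in gLuc 3 and by 0.39 in gFBXW7_gKMT2D 2, as a difference of median log2 departures, while in gFBXW7_gKMT2D 3 that difference was -0.48. The ratio of MKI67 reads to CKS1B reads, the long and the short gene of largest spread, was 1.02, 3.16 and 0.506 in gFBXW7_gKMT2D, 0.565, 1.10 and 1.09 in gFBXW7, and 0.641, 1.55 and 3.24 in gLuc libraries. Ribosomal protein transcripts, which are short, took 8.04%, 5.43% and 11.2% of the counts in gFBXW7_gKMT2D, 8.53%, 7.43% and 6.76% in gFBXW7, and 8.21%, 6.13% and 5.005% in gLuc libraries. Their share was lowest in the libraries in which long mitosis genes were high, and their part in the result was not tested.

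**Figure D4:**
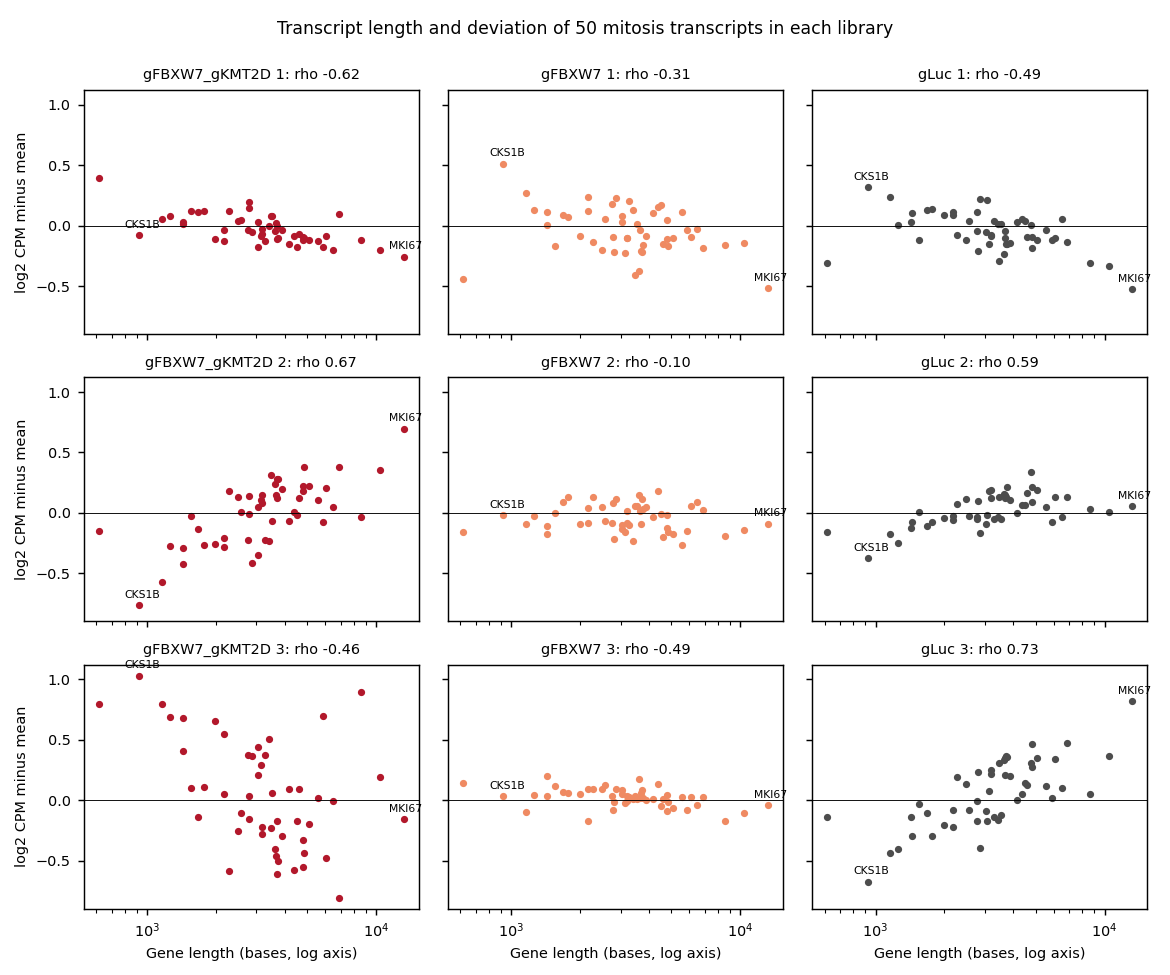
Departure of each of the 50 genes from its mean (log2 CPM, vertical axis) against gene length (bases, log axis), 1 panel per library, with columns for gFBXW7_gKMT2D, gFBXW7 and gLuc and Spearman's rho above each panel. Points slope upward in gFBXW7_gKMT2D 2, gLuc 2 and gLuc 3 (rho 0.67, 0.59 and 0.73) and rho is negative in the other 6 libraries, from -0.10 to -0.62.

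**Figure D5:**
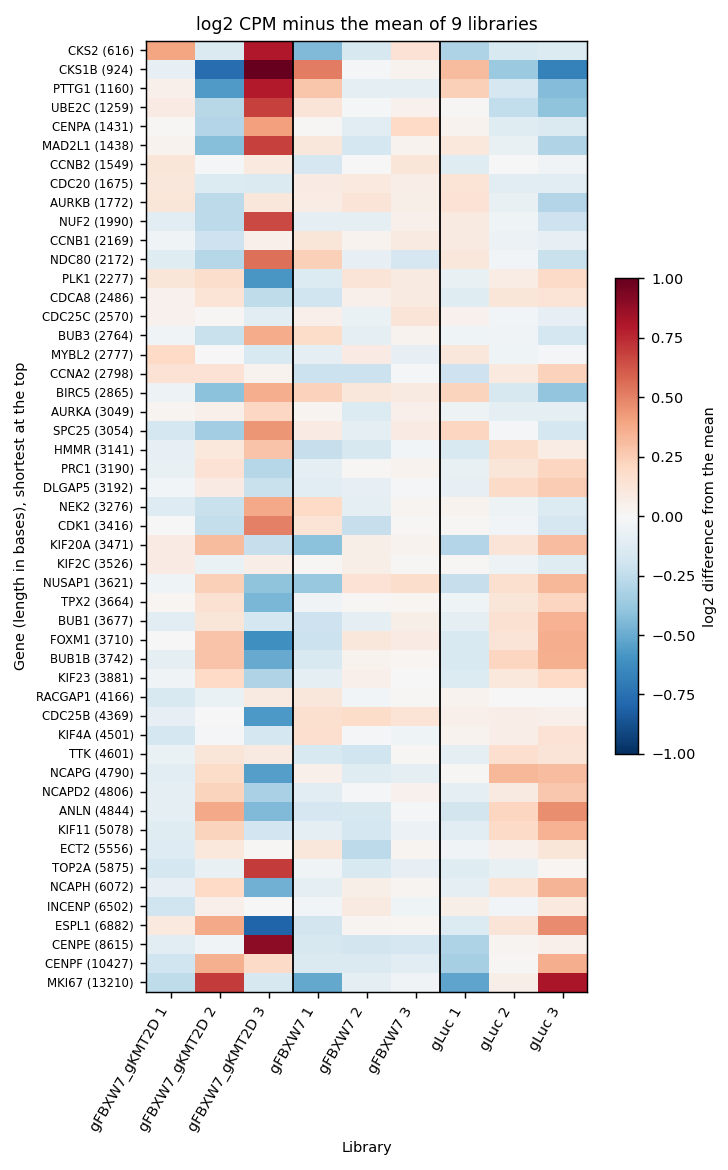
Departure from the mean over 9 libraries (log2 CPM, colour, red above and blue below, saturating at 1) of each of the 50 genes (rows, shortest transcript at the top) in each library (columns). In gFBXW7_gKMT2D 3 the short genes at the top are mostly above their means. Some of the 25 longest also are, CENPE (0.89), TOP2A (0.70) and CDK1 (0.50) the most. CENPF, TTK, RACGAP1, KIF2C and ECT2 are above by less. In gLuc 3 the long genes at the bottom are mostly above theirs.

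The comparisons were also read by length. In gFBXW7_gKMT2D against gLuc, 18 of the 25 shortest genes had a fold change above 0 (median log2 fold change 0.08), and 19 of the 25 longest one below 0 (median -0.15). In gFBXW7 against gLuc these were 18 (median 0.06) and 21 (median -0.12), and in gFBXW7_gKMT2D against gFBXW7 the medians were 0.03 and -0.00044. The first and second of these comparisons share the gLuc libraries. The split was read again without gFBXW7_gKMT2D 3, chosen after the values had been seen, and no other library was left out for it. The split in gFBXW7 against gLuc does not contain this library. Without gFBXW7_gKMT2D 3, 11 of the 25 shortest genes lay above 0 in gFBXW7_gKMT2D against gLuc. Of the 25 longest, 17 lay below 0, and both sets had a median of -0.04. In gFBXW7_gKMT2D against gFBXW7 the medians without it were -0.13 for the shortest and 0.10 for the longest. When the length trend of each library was removed, an alternative chosen after seeing the data, the median within-group SD of the 50 genes was 0.18, with 31 of them smaller than before, and that of MKI67 was 0.34, of CKS1B 0.32 and of PTTG1 0.20. None of the 50 genes passed the test after this either. Above 0 were then 30 of the 50 in gFBXW7_gKMT2D against gFBXW7, 22 against gLuc and 15 in gFBXW7 against gLuc, in place of 27, 24 and 22. The medians were 0.04, -0.01 and -0.06, against 0.02, 0.0060 and -0.0054 over all tested genes. With the GC trend removed instead, 28, 25 and 25 lay above 0.

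GC content was related to the departures in some libraries. Its Spearman's rho with those of the 50 genes was 0.80 in gFBXW7 2 and -0.36 in gFBXW7_gKMT2D 3, against 0.48 and -0.12 over all genes with a known GC content. Transcripts of mitochondrial DNA, 13 genes, took 3.63%, 3.67% and 2.04% of counts in gFBXW7_gKMT2D, 0.638%, 1.52% and 1.54% in gFBXW7, and 1.636%, 3.02% and 3.33% in gLuc libraries, and the 50 mitosis genes together took 0.765%, 0.872% and 0.751%, then 0.750%, 0.766% and 0.808%, then 0.743%, 0.823% and 0.892% in the same groups. The part of the mitochondrial share in the comparisons was not tested.

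Split by promoter layout, both sets of genes had medians near 0. The 17 genes with both TTTGAA and CCAAT in the 100 bases before the start had median log2 fold changes of -0.0033, -0.06 and -0.04 in gFBXW7_gKMT2D against gFBXW7, gFBXW7_gKMT2D against gLuc and gFBXW7 against gLuc. The 25 genes with a window but not both had medians of 0.03, 0.0051 and -0.07.

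No further gene of the pathway passed the test. Of 105 other mitosis genes, such as subunits of the anaphase-promoting complex and of the centromere, none was called in any comparison. Above 0 were 67 in gFBXW7_gKMT2D against gFBXW7 (median 0.06, 54.6% of all tested genes) and 45 against gLuc (median -0.03, 50% of all). In gFBXW7 against gLuc 39 were (median -0.05, 49.3%). Groups without overlap numbered 1, 1 and 1 upward in the same order, against 4.35%, 3.28% and 4.37% of all tested genes. Downward they numbered 3, 4 and 8, against 5.2%, 3.69% and 4.49%. The genes of smallest p were KIF20B, a kinesin of cytokinesis (0.52, SE 0.27, in gFBXW7_gKMT2D against gFBXW7, with 158, 148 and 331 CPM in gFBXW7_gKMT2D and 161, 142 and 142 CPM in gFBXW7, and 0.05 without gFBXW7_gKMT2D 3), and KIF18A, a kinesin that damps chromosome movements (-0.32, SE 0.12, edgeR adjusted p = 0.956, in gFBXW7 against gLuc). Without gFBXW7_gKMT2D 3, left out of these lists after the values had been seen, 55 and 31 of the 105 lay above 0 against gFBXW7 and against gLuc (medians 0.01 and -0.04), and none was called. Of 29 genes of G1/S and DNA replication none passed either, with medians of -0.04, -0.07 and 0.03.

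Among 20 genes of the DREAM complex and the inhibitors that lead to it, 19 were tested and none passed. In gFBXW7_gKMT2D against gFBXW7, 11 of the 19 lay above 0 (median 0.01, 54.6% of all tested genes). Against gLuc 7 did (median -0.05, 50% of all), and in gFBXW7 against gLuc 5 (median -0.06, 49.3%). The inhibitor CDKN1B was the lowest of the 19 in both comparisons with gFBXW7_gKMT2D (-0.35 and -0.37). Without gFBXW7_gKMT2D 3 the first of these was -0.11. CDKN1A, the inhibitor p21 through which p53 can shut down mitotic genes, had the smallest p among the genes of these 3 lists. It had 3.53, 2.75 and 1.94 CPM in gFBXW7_gKMT2D and 2.05, 2.38 and 1.83 CPM in gFBXW7, against 1.48, 1.19 and 1.31 CPM in gLuc libraries. Every library of either group that carried the RNA against FBXW7 was above every gLuc library, and the level was low in all. In gFBXW7_gKMT2D against gLuc and gFBXW7 against gLuc, 0 and 1 of the 19 lay wholly below gLuc (against 3.69% and 4.49% of all tested genes). Wholly above lay CDKN1A alone, 1 of 19 in each, against 3.28% and 4.37%, and it was picked for its small p. The log2 fold change was 1.05 (SE 0.25, unadjusted p = 0.00204, edgeR adjusted p = 0.774) in gFBXW7_gKMT2D against gLuc, 0.65 (SE 0.26, adjusted p = 0.956) in gFBXW7 against gLuc, which shares those controls, and 0.40 (SE 0.24, adjusted p = 1) in gFBXW7_gKMT2D against gFBXW7.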

How the data were processed

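The 9 libraries hold poly(A) RNA of OPM-1 cells, 3 per group. The tools named for GRCh38 data are DESeq2, featureCounts, STAR and Trimmomatic, per the submitters' processing notes. Their versions, roles and the strand setting of the counting are not given in the sources used here. Per the file headers, the authors deposited a gene length and, for each library, a raw read count and an RPKM value. The deposited RPKM equalled the count divided by length and library total (largest relative difference 8.5e-07). An unnamed row holding the library totals was left out.

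Counts were tested in R 4.3.3 with edgeR 4.0.16 (filterByExpr, TMM, glmQLFTest over all 9 libraries, Benjamini-Hochberg over 13262 genes, threshold 0.05). CPM uses TMM sizes, except for the markers of plasma cells and of other cell types, which are scaled to total counts. The SE of a fold change was derived from its F statistic. The pipeline was also run on simulated counts, drawn gene by gene with no length trend shared within a library, unlike these data. The outcome is not given here, and no result above rests on it. Alternatives used DESeq2 1.42.0, limma 3.58.1 (also on log2 of RPKM + 1) and sva 3.50.0. Removal of the length or GC trend of each library was chosen after seeing the data.

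The genes and lists were chosen with earlier results of these data known. Fold changes were named for FBXW7, KMT2D, 12 set members and the 4 of smallest p in each comparison. Levels were given for the 4 highest and 4 lowest by RPKM and the 3 most and 3 least variable. Other genes of the list are named with their values as members. Groups are those of the labels. Coordinates are 1-based, from GENCODE v29 on GRCh38, and promoters are from RefSeq. Figures were drawn with matplotlib 3.10.9 in Python 3.11.15.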

Additional observations from a re-analysis of the deposited data

How the results depend on the processing

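None of the 50 genes was called in any of the 3 comparisons under any of the 22 alternatives run, and no named fold change crossed the threshold. The smallest adjusted p of a gene of the list ranged over them from 0.0762 to 1 in gFBXW7_gKMT2D against gFBXW7, 0.264 to 1 in gFBXW7_gKMT2D against gLuc and 0.575 to 1 in gFBXW7 against gLuc. With this depth and 3 libraries a group, the 95% intervals lay within 2-fold for 47 to 48 of the 50 genes. These intervals are not adjusted for the number of genes and do not give the size of change that the test could call. Log2 fold changes turned sign in 35 of 374, 32 of 374 and 17 of 396 values, and the cause was not tested. This was not confined to values near 0: CKS1B in gFBXW7_gKMT2D against gLuc went from 0.43 to -0.11 with 1 surrogate variable.

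The number of genes called over the whole table moved more. In gFBXW7_gKMT2D against gFBXW7 it was 8 and became 33 with no filter on low counts, 32 with DESeq2's Wald test, 125 with 1 surrogate variable, 5 with upper quartile scaling or with the length or GC trend removed, 3 with limma on RPKM and 0 with the 6 compared libraries alone, and 0 to 7 when single libraries were left out. In gFBXW7_gKMT2D against gLuc it was 7 and became 21 with no filter, 24 with DESeq2, 54 with 1 surrogate variable, 4 with limma on RPKM and 2 with the 6 compared libraries, and 2 to 8 with single libraries left out. In gFBXW7 against gLuc it was 0 by edgeR (209 genes at an unadjusted p under 0.05) and 1 with DESeq2. The median fold change of the 50 genes was -0.036 and -0.087 with limma on RPKM in gFBXW7_gKMT2D against gFBXW7 and against gLuc, and over single libraries left out it ran from 0.0075 to 0.067 in the first, the high end without gFBXW7_gKMT2D 3.

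Replicate numbers are shared by the groups, but the numbers are not taken as pairs. In each comparison the deviations of each library of the first group were set against those of the second group, over all tested genes. The same number correlated best in 2 of 9 such cases, gFBXW7 1 and gFBXW7 3 against gLuc. Over all tested genes the correlations of the 9 same-numbered pairs' deviations ran from -0.59 to 0.45, 4 of them over 0.1. Over the 50 genes they were 0.72, 0.14 and 0.54 in gFBXW7 against gLuc, all over 0.1, -0.27, 0.62 and -0.31 in gFBXW7_gKMT2D against gFBXW7, and 0.06, 0.33 and -0.72 in gFBXW7_gKMT2D against gLuc. With the replicate block, 2 genes were called in each comparison with gFBXW7_gKMT2D and none of the 50, and CKS1B (-0.019, gFBXW7_gKMT2D against gFBXW7) and MYBL2 (-0.00339, against gLuc) turned sign.

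In gFBXW7_gKMT2D against gFBXW7, the following also turned sign. FBXW7 was 0.00208 with DESeq2 size factors, 0.00356 when genes needed a mean of 50 reads, 0.00149 with DESeq2's Wald test, 0.011 with the 6 compared libraries and 0.012 with the length trend removed. KMT2D and CKS1B were -0.10 and -0.070 with limma-voom, -0.052 and -0.15 with limma on RPKM, -0.075 and -0.15 with 1 surrogate variable, and -0.051 and -0.061 with the length trend removed. BUB1 was -0.00742 with limma on RPKM and -0.00944 with the GC trend removed, where FOXM1 was 0.000881. With single libraries left out the ranges were -0.25 to 0.11 for FBXW7, -0.59 to 0.44 for KMT2D, -0.048 to 0.14 for MYBL2, -0.15 to 0.026 for AURKB, -0.069 to 0.099 for BUB1, -0.086 to 0.29 for CDK1, -0.22 to 0.12 for PLK1, -0.028 to 0.45 for TOP2A, -0.28 to 0.15 for FOXM1 and -0.57 to 0.38 for CKS1B.

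In gFBXW7_gKMT2D against gLuc, MYBL2 was -0.00815 with no filter, -0.00686 with limma-voom, -0.076 with limma on RPKM and -0.020 with the length trend removed. AURKB was -0.00773 with limma on RPKM, -0.033 with 1 surrogate variable and -0.030 with the length trend removed. With 1 surrogate variable FBXW7 was -0.041, KMT2D 0.19, PLK1 0.00927 and CKS1B -0.11, and CDC20 was 0.00461 with the GC trend removed. With single libraries left out the ranges were -0.82 to 0.32 for KMT2D, -0.14 to 0.23 for FBXW7, -0.030 to 0.18 for AURKB, -0.098 to 0.082 for MYBL2, -0.10 to 0.022 for CCNB1, -0.12 to 0.058 for CDC20, -0.051 to 0.33 for CDK1, -0.26 to 0.082 for PLK1, -0.066 to 0.42 for TOP2A, -0.41 to 0.020 for FOXM1 and -0.20 to 0.77 for CKS1B.

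In gFBXW7 against gLuc, CDK1 was -0.00472 with limma on RPKM. With 1 surrogate variable KMT2D was 0.27, CDK1 -0.098, PLK1 0.11, FOXM1 0.075 and CKS2 -0.045. With the length trend removed TOP2A was 0.037, CDC20 -0.033 and CKS2 -0.19, and TOP2A was 0.044 with the GC trend removed. With single libraries left out the ranges were -0.043 to 0.12 for CDK1, -0.10 to 0.041 for PLK1, -0.093 to 0.20 for CKS2, -0.50 to 0.21 for KMT2D and -0.25 to 1.2e-05 for FOXM1.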
